A study of Oryctolagus cuniculus with 4 samples.

Results

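The core circadian clock genes were described in rabbit hamstring tendon. They were taken as the genes whose symbol in the deposited table is one of ARNTL, CLOCK, PER1, PER2, PER3, CRY1, CRY2, NR1D1, NR1D2 and DBP. The table held an entry for 8 of these 10 symbols, among 20294 genes of which 13225 had a symbol. PER3 and DBP had none, so nothing is said here about their expression. Poly(A) RNA came from the semitendinosus, a hamstring tendon that surgeons take to rebuild a torn ligament. The sources name the tissue in different ways, as allografts in the title, autografts in the design text and intact in the sample descriptions, and it is called tendon here. The donors were 4 New Zealand White rabbits, all female, 193 days old and with no treatment named. Each animal gave 1 tendon, and all 4 tendons formed 1 group, so levels and their spread between animals are described and no condition is compared. Muscle had been scraped from the tendon surface before freezing, and the time of day of collection is not given in the sources used here.

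The circadian clock is a feedback loop of transcription that runs in most cells with a period near a day. The activators ARNTL (also called BMAL1) and CLOCK bind DNA as a pair and switch on the PER and CRY genes, whose proteins return to the nucleus and inhibit that pair. In a second loop the same activators switch on NR1D1 and NR1D2 (REV-ERB alpha and beta), nuclear receptors that repress ARNTL, while ROR receptors at the same DNA elements activate it. In tissues with a running clock, ARNTL mRNA and the mRNAs of NR1D1 and the PER genes peak at different times of day, and tendon fibroblasts are known to have such a clock.

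The 4 tendons had between 19759696 (tendon 1) and 30646052 (tendon 2) estimated counts. Levels of different genes are given in TPM, which corrects for transcript length and has the same total in every tendon. Values of 1 gene in different tendons are given in TMM-normalised CPM, counts per gene scaled to a common depth after TMM scaling, which allows for a few abundant genes taking a changing part of a library. Markers of tenocytes, the resident tendon fibroblasts, took 6.57%, 4.94%, 3.24% and 2.90% of TPM in tendons 1 to 4, and 0 of the 8 measured markers were at 0 in all tendons. Muscle markers took between 0.869% and 3.42% of TPM and were lowest in tendon 1. Adipocyte markers took 0.0274% to 0.113%, endothelial markers 0.0195% to 0.0329% and macrophage markers 0.00677% to 0.0204%. The 4 animals may differ in more than 1 way, and in whole tissue fewer cells of a type and less RNA per cell cannot be told apart.

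All 8 core clock genes were detected in every tendon. Their summed share of TPM was 0.0735%, 0.0436%, 0.0588% and 0.0513% in tendons 1 to 4, on average 0.0568% ± 0.0128 (SD, n = 4). The receptors NR1D1 and NR1D2 supplied most of this, 71.3%, 71.9%, 78.2% and 76.8% of the TPM of the 8 genes. NR1D1 had the highest mean level of the 8, 215 ± 57.6 TPM (SD, n = 4), which ranked 599th of all genes, and NR1D2 followed at 208 ± 39.1 TPM, in rank 617. CLOCK stood at 38.7 ± 7.24 TPM, PER1 at 38.1 ± 24.5 TPM, CRY2 at 30.1 ± 2.62 TPM and ARNTL at 23.9 ± 12.4 TPM. PER2, at 7.18 ± 1.95 TPM, and CRY1, at 7.13 ± 3.06 TPM, had the lowest means. The highest mean was 30.2 times the lowest.

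**Figure D1:**
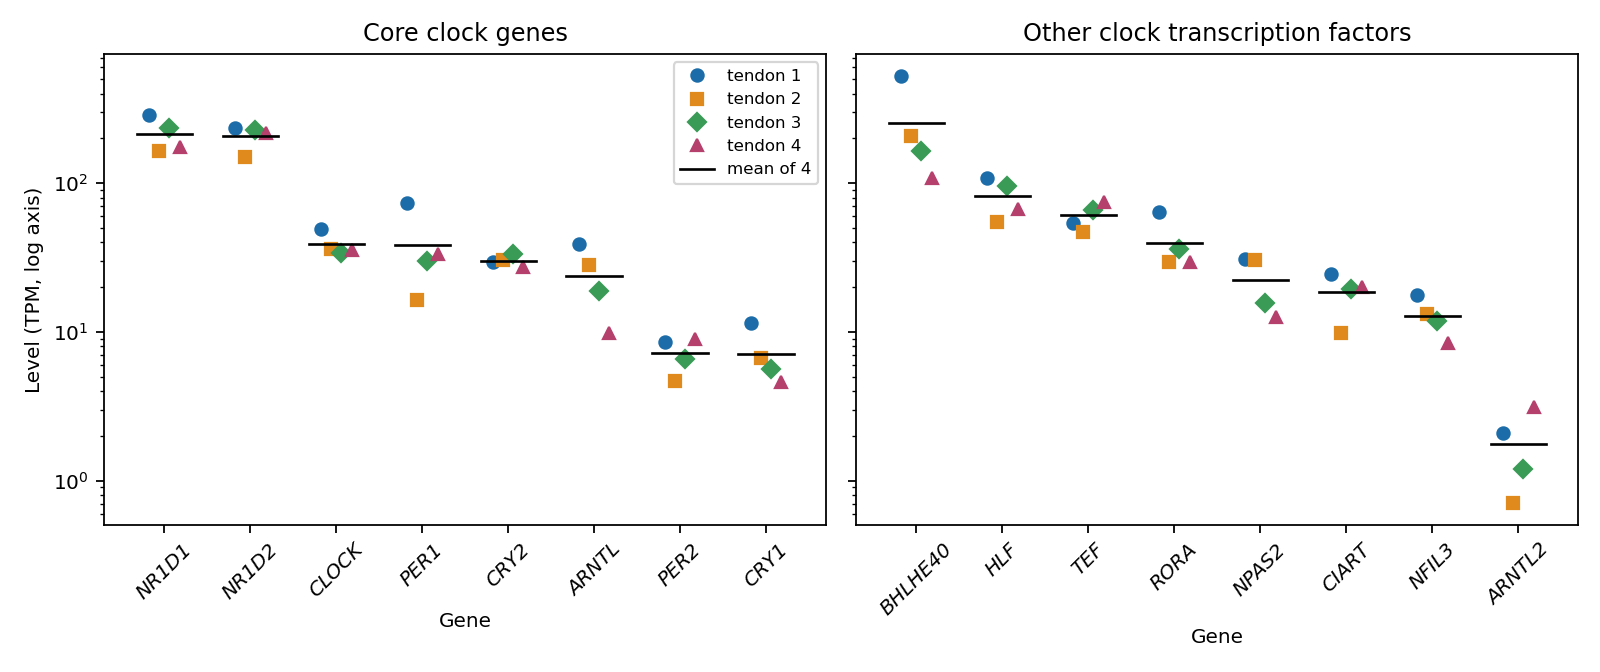
Levels in TPM on a log axis of the 8 core clock genes (left) and of 8 other clock transcription factors (right); each point is 1 tendon and each bar the mean over the 4. NR1D1 and NR1D2 lie at or above 150.0 TPM in every tendon, above the other 6 core genes, and PER1 reaches 73.2 TPM in tendon 1 and 16.3 TPM in tendon 2.

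The order came from the mean TPM of these same 4 tendons, so the direction of the mean difference in each pair was set by that choice. No neighbours in it could be told apart at a threshold of 0.05. Of 7 neighbouring pairs, 2 kept the same order in all 4 tendons. NR1D2 exceeded CLOCK 4.77-, 4.14-, 6.70- and 6.16-fold in tendons 1 to 4 (exact sign-flip permutation test, two-sided, p = 0.13, adjusted p = 0.438 over 7 pairs). ARNTL exceeded PER2 4.55-, 6.01-, 2.83- and 1.10-fold (exact permutation test, p = 0.13). With 4 tendons this is the smallest p the test can give, 2 of 16 sign assignments, so no pair could reach 0.05. The other 5 pairs (NR1D1 and NR1D2, CLOCK and PER1, PER1 and CRY2, CRY2 and ARNTL, PER2 and CRY1) changed order in at least 1 tendon.

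ARNTL, which encodes an activator whose loss alone stops the clock in mice, was among the most variable members. The gene (ENSOCUG00000005940.3, OryCun2.0 chromosome 1, 155134370 to 155170679, plus strand) had 827, 1033, 613 and 354 estimated counts in tendons 1 to 4. Its TMM-normalised CPM were 43.3, 35.9, 21.7 and 11.1. Tendons 1 and 2 were high and tendon 4 was lowest, 3.90-fold under tendon 1. The exact 95% Poisson intervals of the counts, which cover counting error only, ran from 40.4 to 46.3 CPM in tendon 1 and from 9.96 to 12.3 CPM in tendon 4, so counting error alone does not span that gap. In level, ARNTL had 38.7, 28.2, 18.7 and 9.84 TPM.

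CLOCK, the partner of ARNTL, was far more even. It had 69.8, 58.1, 49.3 and 50.4 TMM-normalised CPM in tendons 1 to 4 (ENSOCUG00000022350.2, chromosome 15, 93338131 to 93398734), a 1.42-fold range. As a ratio of TPM within each tendon, ARNTL was 0.782, 0.779, 0.554 and 0.277 times CLOCK. ARNTL was thus under CLOCK in 4 of 4 tendons, and the ratio itself varied 2.82-fold, with tendon 4 lowest (mean log2 ratio -0.85 ± 0.70, SD, n = 4; exact permutation test, p = 0.13, adjusted p = 0.167 over 8 pairs).

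NPAS2, a paralog of CLOCK that can also pair with ARNTL, was high and low in the same tendons as ARNTL. It had 44.5, 49.2, 23.3 and 18.1 TMM-normalised CPM, a 2.71-fold range, and 22.4 ± 9.61 TPM (SD, n = 4). The TPM ratio of ARNTL to NPAS2 was 1.25, 0.935, 1.19 and 0.782, on both sides of 1. ARNTL2, the paralog of ARNTL, was at 1.77 ± 1.06 TPM and had another pattern, with 4.60, 1.77, 2.72 and 6.95 TMM-normalised CPM. It was highest in tendon 4, where ARNTL was lowest.

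The table split ARNTL into transcripts of 2135 and 2156 bases. The shorter transcript had 84.5%, 79.2%, 65.3% and 68.5% of the gene's estimated counts in tendons 1 to 4, and its own counts were 699, 818, 400.1 and 243. Both transcripts are nearly the same length, and how reads were divided between them is an estimate, so the sum is used elsewhere.

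NR1D1 and NR1D2, the repressors of ARNTL, were abundant in all 4 tendons. NR1D1 (ENSOCUG00000009732.3, chromosome 19, 41290118 to 41298931, minus strand) had 627, 404, 528 and 384 TMM-normalised CPM in tendons 1 to 4. Tendons 1 and 3 were higher than tendons 2 and 4, over a range of 1.63-fold. NR1D2 (ENSOCUG00000009329.3, chromosome 14, 10306237 to 10329524) had 662, 478, 656 and 617 TMM-normalised CPM, with tendon 2 lowest. Without tendon 2 the range of NR1D2 was 1.07-fold, against 1.38-fold with it. The TPM ratio of NR1D1 to NR1D2 was 1.22, 1.09, 1.04 and 0.802, so neither receptor was the higher one in all tendons (exact permutation test, p = 0.75). ARNTL had 0.134, 0.173, 0.0798 and 0.0561 times the TPM of NR1D1, a ratio that was under 1 in 4 of 4 tendons and varied 3.08-fold.

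The 3′ part of NR1D1 overlaps THRA, a thyroid hormone receptor gene on the opposite strand, by 1931 bases of the genome. The use of strand in the counting is not given in the sources used here, so reads of the overlap cannot be assigned with certainty. THRA itself had 2130, 2988, 2813 and 2666 estimated counts in tendons 1 to 4, against 11985, 11623, 14922 and 12272 for NR1D1, and 103 ± 12.9 TPM (SD, n = 4).

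RORA, a receptor that opposes NR1D1 and NR1D2, was detected in all 4 tendons. It had 64.1, 29.4, 36.3 and 29.5 TPM in tendons 1 to 4, and was 0.222, 0.180, 0.155 and 0.168 times NR1D1. Its TMM-normalised CPM were 47.1, 24.5, 27.6 and 21.9, with tendon 1 above 3 tendons that lay close together. RORB, a related receptor, had 0 counts in all tendons, which at the depth of each library allows up to 0.0979 to 0.152 CPM (3 counts).

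PER1, a repressor that is also switched on directly by hormones and other stimuli, had the widest range of the 8 members with TMM, and ARNTL by a small margin with DESeq2 size factors (3.94- against 3.93-fold). The gene (ENSOCUG00000026333.1, chromosome 19, 11100588 to 11109118) had 2638, 1002, 1650 and 2009 counts and 138, 34.8, 58.3 and 62.9 TMM-normalised CPM in tendons 1 to 4. Tendon 1 was 3.96 times tendon 2, and tendons 3 and 4 lay close together between them. Without tendon 1 the range was 1.81-fold.

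PER2, its paralog, had a narrower range. It had 18.7, 11.7, 15.03 and 19.8 TMM-normalised CPM (ENSOCUG00000000215.4, scaffold GL018969, 277359 to 311093), a 1.68-fold range with tendon 2 lowest, as for PER1, but tendon 4 highest. The Poisson intervals of its counts overlapped between tendons 1 (16.8 to 20.8 CPM) and 4 (18.3 to 21.4 CPM), and did not reach that of tendon 2 (10.5 to 13.1 CPM). The TPM of PER1 was 8.60, 3.46, 4.53 and 3.71 times that of PER2, higher in 4 of 4 tendons (mean log2 ratio 2.24 ± 0.60, SD, n = 4; exact permutation test, p = 0.13, adjusted p = 0.167).

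The cryptochromes, the partners of the PER proteins in repression, differed in level and in spread. CRY2 (ENSOCUG00000025433.2, chromosome 1, 185198348 to 185231814) was the most even of the 8 members, with 93.4, 108.6, 109.4 and 86.2 TMM-normalised CPM in tendons 1 to 4, a 1.27-fold range. Its annotated span lies inside that of PEX16, a peroxisome gene on the opposite strand with 219 to 476 counts per tendon. CRY1 (ENSOCUG00000013721.3, chromosome 4, 89376415 to 89469975) had 303, 301, 228 and 203 counts and 15.8, 10.5, 8.06 and 6.36 TMM-normalised CPM, with tendon 1 highest and tendon 4 lowest, 2.49-fold apart. The TPM of CRY1 was 0.390, 0.221, 0.169 and 0.169 times that of CRY2, lower in 4 of 4 tendons (mean log2 ratio -2.17 ± 0.57, SD, n = 4; exact permutation test, p = 0.13, adjusted p = 0.167). PER2 was likewise under CRY2 in 4 of 4 tendons, at 0.155 to 0.329 times its TPM.

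**Figure D2:**
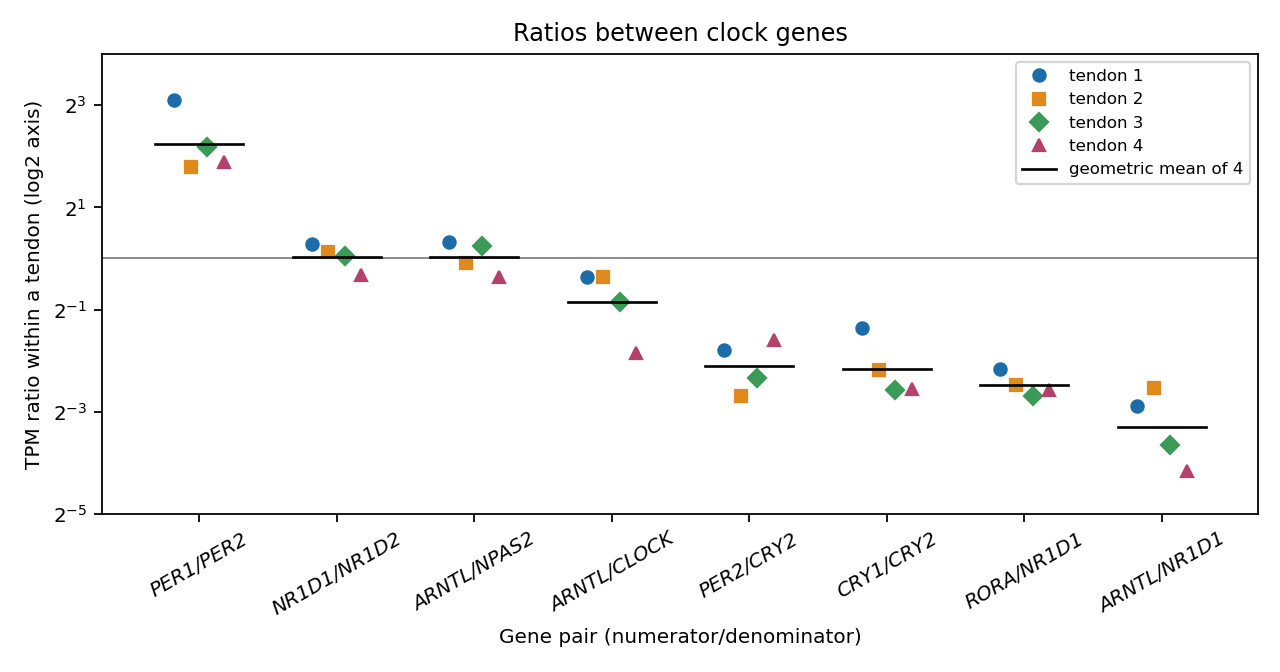
TPM ratios within each tendon (points, log2 axis) for the 8 pairs of clock genes with both entries, with the geometric mean of 4 as a bar and a line at 1. PER1 lies above PER2 and CRY1 below CRY2 in all 4 tendons, while ARNTL to NPAS2 lies on both sides of 1.

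Of the 13 pairs listed, 8 could be formed, and in 6 of them the same gene was higher in every tendon. None could pass the exact permutation test at 0.05 with 4 tendons.

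Of 11 other clock transcription factors listed, 10 had an entry, and in TPM they included some of the most abundant clock mRNAs. BHLHE40 (DEC1), a repressor that competes for the DNA elements bound by ARNTL and CLOCK, had 530, 208, 165 and 108 TPM in tendons 1 to 4, a mean of 253 ± 189 TPM (SD, n = 4). On the TMM-normalised CPM scale it was 4.85-fold higher in tendon 1 than in tendon 4, and 2.17-fold higher in the highest than in the lowest of the other 3 tendons. HLF and TEF, activators of the same family as DBP, had 81.4 ± 24.6 and 60.6 ± 12.3 TPM. NFIL3, the repressor that competes with this family, had 12.8 ± 3.83 TPM and was highest in tendon 1 and lowest in tendon 4. CIART, a repressor that binds ARNTL, had 18.5 ± 6.20 TPM and 14.6, 6.67, 12.1 and 12.1 TMM-normalised CPM, so tendon 2 stood under the rest. The ranking depended on length correction. Without it BHLHE40 had a mean of 166 CPM, under NR1D1 at 485 CPM. HLF had 34.8 CPM, under CRY2 at 99.3 CPM, while TEF, at 142 CPM, was above CRY2 on both scales.

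**Figure D3:**
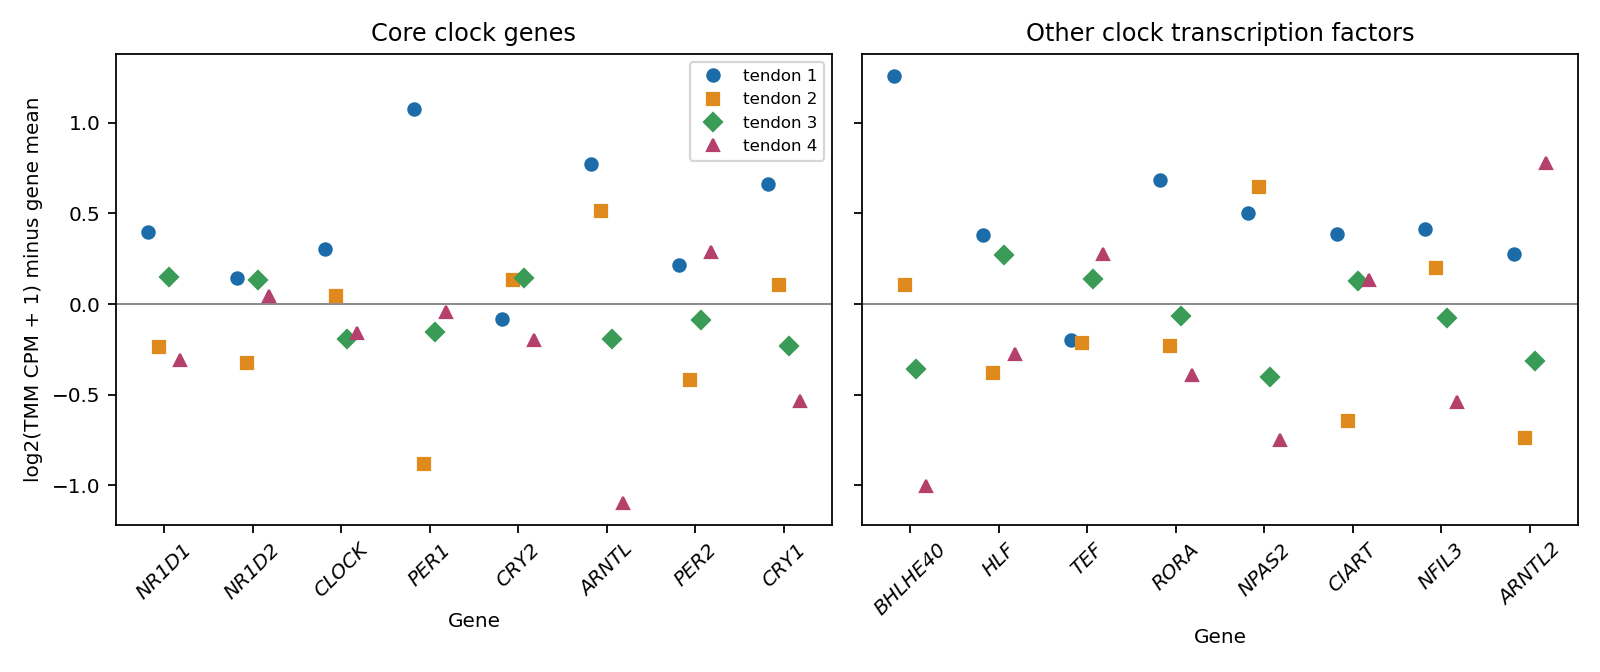
log2(TMM CPM + 1) of each gene minus its mean over the 4 tendons, for the 8 core clock genes (left) and 8 other clock transcription factors (right); points are tendons 1 to 4. PER1, at 1.08, is the core gene farthest above its mean in tendon 1, and ARNTL, at -1.10, the one farthest below it in tendon 4.

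Tendon 1 was the highest for 6 of the 8 core genes, ARNTL, CLOCK, CRY1, PER1, NR1D1 and NR1D2, and for 5 of 8 other factors that averaged at least 1 CPM. Over all 12672 genes with such an average, tendon 1 was the highest for 30.8%. NR1D2 was highest in tendon 3 when library totals replaced TMM. Tendon 4 was the lowest for ARNTL, CRY1, CRY2 and NR1D1 (4 of 8, against 25.8% of all genes), and for BHLHE40, NFIL3, NPAS2 and RORA among the other factors. CRY2 was lowest in tendon 1 by library totals, NR1D1 and RORA were lowest in tendon 2 by library totals and in TPM, and the other 5 kept tendon 4 under TMM, DESeq2 size factors, library totals and TPM. Tendon 2 was the lowest for PER1, PER2 and NR1D2 (3 of 8, against 26.2% of all genes), and for CIART, HLF, TEF and ARNTL2, under each of these 4 scalings. In tendon 2 ARNTL and NPAS2 were therefore high while PER1, PER2, NR1D2 and CIART were at their lowest. In tendon 4 ARNTL was at its lowest and PER2 at its highest, at 19.8 TMM-normalised CPM against 18.7 in tendon 1. Other values did not run in opposite ways. ARNTL, PER1 and NR1D1 were all highest in tendon 1, and under TMM ARNTL and NR1D1 were both lowest in tendon 4. This grouping of tendons and genes was chosen after its values were seen and was not tested.

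The tendons also differed in cell type markers. Tenocyte markers, at 6.57% and 4.94% of TPM in tendons 1 and 2 and 3.24% and 2.90% in tendons 3 and 4, stood as a sum in the same order as ARNTL and CRY1. Single markers did not all follow it. In TMM-normalised CPM, 4 of 8 were lowest in tendon 4, against 25.8% of all genes, while TNMD, COL1A1 and COL1A2 were lowest in tendon 3 and TNMD, THBS4 and FMOD highest in tendon 2. Macrophage markers, at 0.00852%, 0.00677%, 0.0164% and 0.0204% of TPM, and adipocyte markers, at 0.0274%, 0.0447%, 0.0593% and 0.113%, were highest in tendon 4. As a sum, muscle markers took 0.869%, 3.42%, 1.76% and 2.43%, but single ones had unlike patterns. In TMM-normalised CPM, 8 of 13 were highest in tendon 2 and 5 in tendon 4. Of all 12672 genes, 3505 and 3116 were highest there. MYH2 had 1.73, 3.27, 3.25 and 754 TMM-normalised CPM in tendons 1 to 4, and MYH1 had 0.732, 3.16, 1.41 and 311. Endothelial markers took 0.0195%, 0.0241%, 0.0329% and 0.0312%. In TMM-normalised CPM, tendon 1 was the lowest for 6 of 6 adipocyte and 6 of 6 endothelial markers. It was the lowest for 3972 of all 12672 genes. The part of these marker differences in the clock values was not tested.

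Against the rest of the transcriptome, the spread of the members was mixed. The highest tendon was at least 2 times the lowest for 3 of 8 members, PER1, ARNTL and CRY1, and for 18.9% of all 12672 genes that averaged at least 1 CPM. With a 1.5-fold threshold it was 5 of 8 members and 40.5% of all genes. All 8 members averaged at least 10 CPM, and of all genes with that average 10.2% ranged at least 2-fold. The median range was 1.66-fold over the members and 1.41-fold over all genes. Only 4.47% of all genes had a wider range than PER1 and 4.64% than ARNTL, whereas 69.3% had a wider range than CRY2. The biological coefficient of variation, edgeR's estimate of spread beyond counting error, was 0.432 for PER1, 0.425 for ARNTL and 0.332 for CRY1, and between 0.187 and 0.248 for the other 5, against a median of 0.205 over 12740 genes. The count of 3 fell to 1 without tendon 1 (ARNTL) and to 1 without tendon 4 (PER1), where 11.6% and 13.1% of all genes passed; without tendon 4 ARNTL ranged 1.995-fold and CRY1 1.97-fold.

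**Figure D4:**
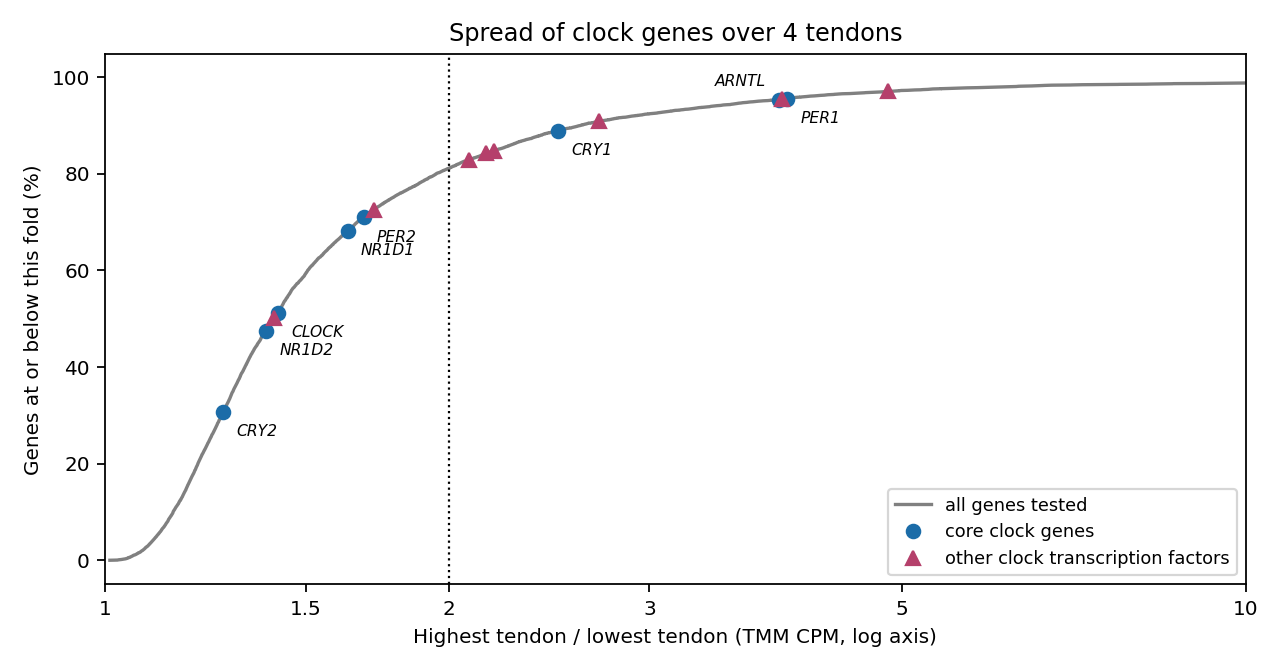
Share of all 12672 genes (percent) at or below each ratio of the highest to the lowest tendon in TMM-normalised CPM (log axis), with the core clock genes (circles) and other clock transcription factors (triangles) placed on that curve; the dotted line is 2-fold. PER1, ARNTL and CRY1 lie past the line, and the other 5 core genes between 1.27- and 1.68-fold.

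Among the other clock transcription factors, 6 of 8 ranged at least 2-fold, against 18.9% of all genes, with a median of 2.17-fold against 1.41-fold; these were BHLHE40, ARNTL2, NPAS2, CIART, RORA and NFIL3. The number was 3 without tendon 1, where 11.6% of all genes passed, and 4 with library totals, where 20.7% did. Of 17 symbols listed for genes that modify clock proteins, 14 had an entry. None of these 14 kinases, ubiquitin ligases and other modifiers ranged at least 2-fold, against 18.9% of all genes, and their median range was 1.26-fold against 1.41-fold; the difference between the lists was not tested. TIMELESS passed in TPM, and TIMELESS and PRKAA2 passed with library totals. CSNK1D, a kinase that phosphorylates the PER proteins, had 71.2 ± 4.14 TPM (SD, n = 4) and CSNK1A1, of the same family, 126 ± 8.70 TPM.

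PER1 is a known target of the glucocorticoid receptor, and the other measured genes of a glucocorticoid-responsive list (10 of 13 symbols had an entry, PER1 included) were mostly highest in tendon 1 as well. Without PER1, tendon 1 was the highest for 6 of 9 genes, against 30.8% of all genes, and 7 of 9 ranged at least 2-fold, against 18.9%. DDIT4, a stress-response gene, had 474, 71.1, 113 and 88.4 TMM-normalised CPM, DUSP1, a phosphatase gene, 299.7, 91.8, 116 and 78.2, and FKBP5, a chaperone of steroid receptors, 54.1, 26.5, 20.8 and 23.7. The list with PER1 took 0.151% of TPM in tendon 1 and 0.0563% to 0.0664% in the others. Over the 10 genes with PER1 included, 8 ranged at least 2-fold, and 2 (ANGPTL4 and PDK4) did so without tendon 1, where 11.6% of all genes did. SGK1, an ion transport kinase gene of the same list, was highest in tendon 4, with 61.2, 80.7, 63.6 and 93.2 TMM-normalised CPM. ANGPTL4 and PDK4 were highest in tendon 3. Hormone levels were not part of the data, and the part of any such difference in PER1 was not tested.

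For the 3 members that ranged at least 2-fold, the genes with the most similar values over the 4 tendons were found among 7297 named genes that averaged at least 10 CPM. Similarity was the root mean square difference of log2(TMM CPM + 1) after centring each gene. Nearest to ARNTL were KERA (0.105), which encodes the proteoglycan keratocan, HAPLN1 (0.131), a link protein of hyaluronan, and CCDC3 (0.162). KERA had 177, 122, 83.1 and 41.1 TMM-normalised CPM in tendons 1 to 4. Tendon 1 was highest and tendon 4 lowest, which follows from its choice as the gene nearest to ARNTL. Nearest to CRY1 were PLEKHA1 (0.0474), TUFT1 (0.0506) and ITGA2 (0.0516), a collagen-binding integrin subunit. PER1 had no gene as close, with TENM1 at 0.215, SLC27A6, a fatty acid transporter family gene, at 0.244 and EGR1, an immediate early transcription factor gene, at 0.271. EGR1 had 122, 27.7, 50.9 and 34.7 TMM-normalised CPM. With 4 tendons many genes can match by chance, and the values describe these libraries.

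**Figure D5:**
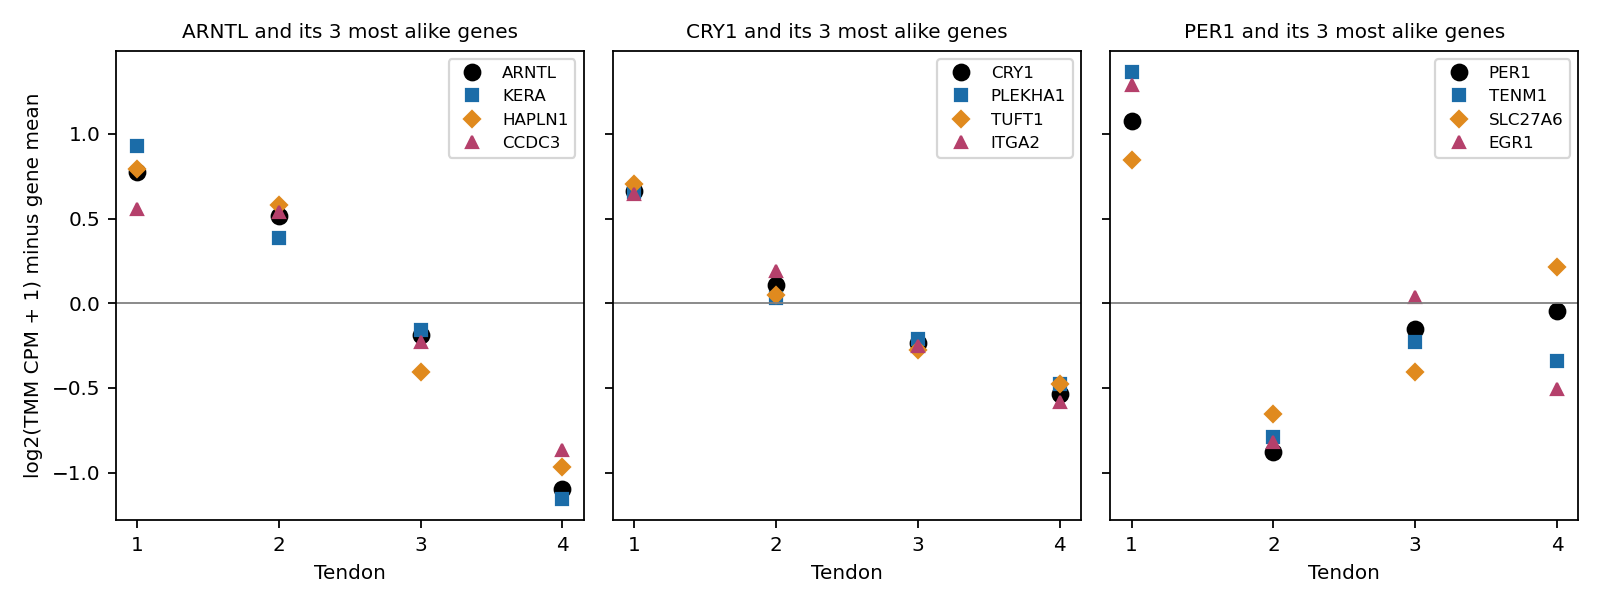
log2(TMM CPM + 1) minus the gene's mean in each of the 4 tendons, for ARNTL, CRY1 and PER1 (black circles) and, in colour, the 3 named genes with the most similar values to each. The genes nearest to CRY1 differ from it by 0.0474 to 0.0516 (root mean square, log2), and those nearest to PER1 by 0.215 to 0.271.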

How the data were processed

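Poly(A) RNA of 4 tendons was sequenced, 1 library per animal. The authors deposited unscaled estimated counts for each transcript, with transcript lengths in bases as another deposited column, per the file headers. Kallisto 0.42.4, bcl2fastq, FastQC and OryCun2.0 appear in the submitters' processing notes without their roles; use of strand and filters are not given in the sources used here. Counts were summed per gene. TPM were computed from annotated lengths. Rounded counts were scaled by TMM and the coefficient of variation per gene was fitted with an intercept (edgeR 4.0.16, R 4.3.3; at least 1 CPM in at least 2 tendons). Ratios of TPM were tested with the exact two-sided sign-flip permutation test and Benjamini-Hochberg adjustment. Dixon's ratio (95% critical value) marked tendons apart. A pseudocount of 1 CPM was used on log scales. Named genes were all members, the other clock transcription factors, up to 4 genes per list by mean TPM, list genes ranging at least 2-fold, and 3 nearest genes per variable member; not every eligible gene is printed, and some are not reported here. Members and lists were chosen with earlier results of these data known. Scripts were tested on simulated data. Alternatives were CPM, other denominators, DESeq2 1.42.0 size factors, library totals, other thresholds, another pseudocount and filters, and leaving out each tendon. Nothing states more than 1 library per animal. The p-values take these 4 tendons as the units and test a mean log2 ratio of TPM against no difference. Python 3.11.15, numpy 2.4.6, pandas 2.3.3 and matplotlib 3.10.9 were used. Promoter and protein sequences were not used here.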

Additional observations from a re-analysis of the deposited data

Results flagged for a closer look

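Of 77 values examined (68 genes in TMM-normalised CPM, 8 ratios and the share of TPM), 5 had 1 tendon far from the other 3, where chance gives about 1 in 20, or 3.85. None of the 8 core clock genes was among them. Tendon 1 stood above the rest for DDIT4 (Dixon ratio 0.897), TENM1 (0.862), DUSP1 (0.831) and FKBP5 (0.8298), and tendon 4 stood below the rest for ATF3 (0.850). TENM1 was named for its likeness to PER1, which is itself highest in tendon 1. FKBP5 lies just past the critical value.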

How the results depend on the processing

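The share of the 8 genes was 0.137% without length correction (CPM), against 0.0568% in TPM, and lay between 0.0512% and 0.0612% with each tendon left out. With a 1.5-fold threshold, 5 of 8 members passed in place of 3, where 40.5% of all genes did. With each tendon left out, between 1 and 3 members ranged at least 2-fold, where 11.6% to 16.2% of all genes did. DESeq2 size factors, library totals, TPM, 0.5 CPM added and a minimum of 10 CPM each left 3, the same PER1, ARNTL and CRY1. In these 5 settings 18.7%, 20.7%, 21.3%, 15.5% and 10.2% of all genes passed. The share of all genes that ranged at least 2-fold was 18.9%, 28.9% with a minimum of 0.1 CPM and 32.6% with none. Both ratios near 1 turned. The mean log2 ratio of NR1D1 to NR1D2 was 0.04, -0.33 in CPM, and between -0.049 (without tendon 1) and 0.15 with each tendon left out. That of ARNTL to NPAS2 was 0.03, -0.33 in CPM, -0.40 with the most abundant transcript of each gene, and between -0.068 (without tendon 1) and 0.16, with -0.045 without tendon 3. The other 6 ratios kept their direction under CPM, the most abundant transcript and each tendon left out. No paired comparison of conditions was possible because the design holds 1 group, and only the ratios between genes were paired, within each tendon. With 3 tendons the smallest p is 0.25.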

Other observations

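Genes that are rhythmic in many tissues were also read. Of 9 measured genes, 5 ranged at least 2-fold over the tendons (KLF9, LONRF3, PDK4, KLF10 and WEE1), against 18.9% of all genes. Without tendon 1 it was 1 (PDK4), against 11.6% of all genes, and without tendon 2 it was 3, against 13.7%. Tendon 1 was the highest for 6 of the 9, against 30.8% of all genes. KLF9 and PDK4 are also in the glucocorticoid-responsive list, so the 2 lists are not separate. Without PER1, KLF9 and PDK4, 5 of 7 genes of that list ranged at least 2-fold, against 18.9% of all genes. Tendon 1 was highest for 5 of those 7, against 30.8%. KLF9, a transcription factor gene that is also glucocorticoid-responsive, had 64.0, 39.3, 38.4 and 19.8 TMM-normalised CPM in tendons 1 to 4, so it was highest and lowest in the same tendons as ARNTL. WEE1, a cell cycle kinase gene activated by ARNTL and CLOCK, had 32.7, 16.1, 20.9 and 21.4, so it was highest and lowest in the same tendons as PER1. NAMPT, an enzyme of NAD synthesis, ranged 1.39-fold.

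Among 14 measured immediate early genes, 7 ranged at least 2-fold, against 18.9% of all genes, and 3 did so without tendon 1 (EGR3, FOS and KLF4), against 11.6%. Their highest tendon was not shared, with 6 genes highest in tendon 1 (30.8% of all genes were), 2 in tendon 2, 4 in tendon 3 and 2 in tendon 4, and 9 of 14 were lowest in tendon 4, against 25.8% of all genes. FOS had 29.6, 19.5, 33.9 and 14.1 TMM-normalised CPM in tendons 1 to 4, and KLF4 81.7, 60.2, 125 and 46.1.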
